A study of Mus musculus with 2 samples.

Results

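The 10 genes described here encode proteins of the neuronal cytoskeleton and of axon growth: Map2, Mapt, Map1b, Tubb3, Nefl, Nefm, Nefh, Stmn2, Gap43 and Dcx. They were chosen by name for their known function and not by a rule on values, though earlier results of these data were known. All 10 were found in the GENCODE M21 annotation, which holds 21938 protein-coding genes on the mouse build mm10 (GRCm38). The data are DNase-seq of frontal cortex from female B6CASTF1/J mice, the F1 cross of the strains C57BL/6J and CAST/EiJ, aged 14 days and supplied by The Jackson Laboratory. There was 1 group with 2 libraries, called replicate 1 and replicate 2. The labels give the libraries separate biosamples and 1 donor label, and a mark 3x that is not explained, so it is not known whether tissue of several animals was pooled, and the spread between the libraries may be partly technical. No treatment, mutant or second tissue was labelled, so no test between groups was possible and no p-value is given.

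The enzyme DNase I reaches DNA most easily where nucleosomes are missing, so that open promoters and enhancers collect many cuts. A short stretch inside an open site that is shielded from cutting is called a footprint, and it can mark a bound protein. Microtubules and neurofilaments give axons and dendrites their shape: tubulin forms the microtubule, microtubule-associated proteins bind along it, neurofilament proteins set axon calibre, and stathmin and GAP-43 family proteins act in the growing axon tip. Most genes of this kind are turned on as neurons leave the cell cycle, and the repressor REST, which binds the RE1 sequence, is known to keep many neuronal genes silent in other cells.

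Open sites called in both libraries carried the sequences that follow. They are some of the 15 pairs of a footprint and a motif counted below. Only the named motif is in capitals, and matches to other motifs can stand in lower case. In each, a consensus match lay within a footprint extended by 5 bp that overlapped a footprint of the other library. Bases are those of the GRCm38 reference from RefSeq, written 5′ to 3′ on the strand of the gene, with up to 20 bases on each side of the footprints. CTCF, a zinc finger protein that organises chromatin loops, had 3 such matches. RFX factors, which are known for activating genes of cilia, had 2 overlapping matches on opposite strands in 1 footprint. The GC box is bound by SP family factors, and the E-box by basic helix-loop-helix factors.
Gap43 intron, CTCF, chr16:42276595-42276677, minus strand: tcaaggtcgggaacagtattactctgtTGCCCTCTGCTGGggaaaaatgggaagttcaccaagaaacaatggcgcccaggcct
Stmn2 intron, CTCF, chr3:8513840-8513904, plus strand: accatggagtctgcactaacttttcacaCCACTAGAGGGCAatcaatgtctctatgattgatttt
Past the 3′ end of Tubb3, CTCF, chr8:123422593-123422675, plus strand: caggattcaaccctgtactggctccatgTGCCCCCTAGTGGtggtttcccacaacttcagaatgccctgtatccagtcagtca
Gap43 intron, RFX, chr16:42269421-42269488, minus strand: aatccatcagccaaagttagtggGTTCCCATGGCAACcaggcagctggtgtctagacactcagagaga
Mapt promoter, GC box, chr11:104231311-104231389, plus strand: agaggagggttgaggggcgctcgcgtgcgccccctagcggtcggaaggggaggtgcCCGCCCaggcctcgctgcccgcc
Map1b promoter, GC box, chr13:99516562-99516616, minus strand: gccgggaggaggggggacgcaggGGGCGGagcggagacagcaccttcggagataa
Nefm intron past exon 1, GC box, chr14:68123536-68123589, minus strand: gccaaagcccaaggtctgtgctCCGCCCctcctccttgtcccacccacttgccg
Nefh exon 1, E-box, chr11:4947416-4947470, minus strand: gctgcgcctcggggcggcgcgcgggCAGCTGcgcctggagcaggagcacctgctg

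All 10 genes had an open promoter in each library, as did 58.2% of the 21938 protein-coding genes. A promoter peak here is a peak of the longer deposited list whose midpoint lay no more than 500 bp from any start site annotated for the gene. At the 5′ end of the gene record itself the count was 9 of 10 genes, all but Gap43, against 52.1% of protein-coding genes. Strength is the authors' signal per peak, which is normalized for read depth and has no stated scale. The median of the strongest promoter peak per gene was 1.52 in replicate 1 and 1.21 in replicate 2 for the 10 genes, whereas it was 2.69 in replicate 1 and 1.86 in replicate 2 over protein-coding genes with a promoter peak. Because the tissue is a mixture of cells, an open site in fewer cells and a less open site in each cell cannot be told apart.

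Mapt and Tubb3 had the strongest promoters and Dcx and Gap43 the weakest, in both libraries. Mapt stood at 3.13 in replicate 1 and 1.87 in replicate 2. Of protein-coding genes with a promoter peak, 56.9% in replicate 1 and 50.1% in replicate 2 had a weaker strongest promoter peak. Dcx stood at 0.516 in replicate 1 and 0.429 in replicate 2, where 5.27% and 2.63% of those genes had a weaker strongest promoter peak. Between these ends, Tubb3, Map2, Map1b, Stmn2, Nefl, Nefm, Nefh and Gap43 followed in falling order in replicate 1. In replicate 2 Stmn2 stood above Map1b and Map2, so the order of these 3 genes was not the same in both libraries. Replicate 1 gave the higher value for each of the 10 genes, by 1.02 times for Nefh and by up to 1.73 times for Map2. The strengths are whole multiples of a small step. If 1 step stands for 1 cut, the Mapt peak held 468 cuts in replicate 1 and 218 in replicate 2, and the Dcx peak 77 and 50, which gives a counting error of 4.62% and 6.77% for Mapt and of 11.4% and 14.1% for Dcx. Total reads per library are unknown, and these errors cover counting alone.

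**Figure D1:**
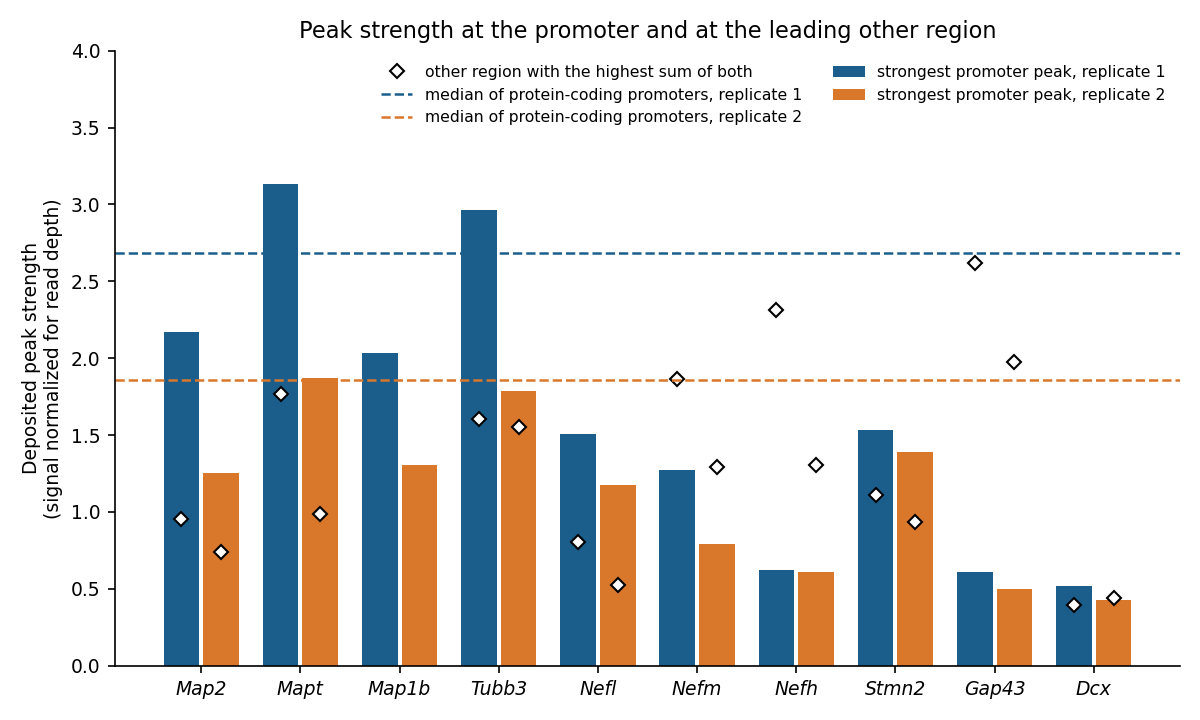
Strength of the strongest promoter peak (bars, deposited signal normalized for read depth, no stated scale) of each gene in replicate 1 and replicate 2, with the region away from promoters, called in both libraries, whose strengths have the highest sum (diamonds) and the median of protein-coding promoters (dashed lines). Mapt is the only gene whose bar reaches the median of its library in both libraries, and Tubb3 does so in replicate 1. The diamonds of Nefm, Nefh and Gap43 lie above their bars in both libraries. That of Dcx does so in replicate 2, by less than the counting error of its bar.

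Base composition is given for 9 of the 10 genes, and the bases upstream of Stmn2 are not described here. Over the 300 bases from 250 before to 50 after the 5′ end, the GC content was 78.3% for Map2 and Mapt and 70.0% for Nefm, against a median of 55.0% over protein-coding genes. Map1b (67%), Nefh (65.3%), Tubb3 (61.7%), Nefl (59.7%) and Gap43 (56.7%) lay between. Dcx had a GC content of 36.7% and 3 CpG dinucleotides, and 4.59% of protein-coding genes had a lower GC content. Gap43 had 7 CpG dinucleotides, against 44 for Mapt, 34 for Map2 and a median of 11 over protein-coding genes. The GC box GGGCGG stood in this window of 6 of these 9 genes (Map2, Mapt, Map1b, Tubb3, Nefm and Nefh), on either strand, and in 43% of protein-coding promoters. The TATA box TATAAA, at any position on either strand, stood in 5 of the 9 (Map1b, Nefl, Nefm, Nefh and Dcx) and in 12.6% of protein-coding promoters. It began 32 bases before the 5′ end in Nefl, 31 in Nefm and 6 in Dcx. Map1b and Nefh had none in the 150 bases before the 5′ end. The 150 bases before the 5′ end are shown for Map2, with a high GC content, and for Gap43 and Dcx, which had the fewest CpG of these 9 genes, with GC box, TATA box and CCAAT matches in capitals.
Map2, chr1:66175123-66175272, plus strand: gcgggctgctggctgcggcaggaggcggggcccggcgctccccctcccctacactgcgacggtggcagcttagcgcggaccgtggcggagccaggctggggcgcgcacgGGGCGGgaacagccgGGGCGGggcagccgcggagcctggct
Gap43, chr16:42340652-42340801, minus strand: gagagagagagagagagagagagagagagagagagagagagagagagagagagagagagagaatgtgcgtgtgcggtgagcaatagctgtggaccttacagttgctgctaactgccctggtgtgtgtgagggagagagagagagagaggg
Dcx, chrX:143933312-143933461, minus strand: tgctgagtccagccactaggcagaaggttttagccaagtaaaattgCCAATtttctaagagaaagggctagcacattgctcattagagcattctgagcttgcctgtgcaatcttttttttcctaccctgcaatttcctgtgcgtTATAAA
Map2 had GC boxes starting 41 and 26 bases before the 5′ end. Gap43 held none of the matches in these 150 bases, and a GA repeat of 74 bases lay within its first 500 bases upstream.

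Of the microtubule-associated proteins, Map2, which marks dendrites, had 3 open start sites along its record (chr1:66175273-66442583, plus strand). At the 5′ end, replicate 1 gave 2.17 and replicate 2 gave 1.05, at chr1:66175007-66175340. A second start site, 146698 bp downstream at chr1:66321801-66322140, had 1.57 in replicate 1 and 1.25 in replicate 2. The last of them, 211659 bp downstream, had 0.918 in replicate 1 and 0.583 in replicate 2. The 5′ end was thus the strongest in replicate 1 and the second start site the strongest in replicate 2. The 5′ end region differed between the libraries by 2.07 times, the widest ratio of the 42 regions that both libraries called at the 10 genes. The FDR of the cut rate, which the authors deposited for stretches under 0.05, reached a −log10 value of 23.3 in replicate 1 and 3.00 in replicate 2 there. Its strongest linked region lay 148398 bp inside the gene, at chr1:66323561-66323780, with 0.951 in replicate 1 and 0.738 in replicate 2. It was the only linked region of Map2 that both libraries called. Of the 6 footprints of Map2 in replicate 1 that overlapped one of replicate 2, 3 lay at the second start site.

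Mapt (chr11:104231390-104332090, plus strand), which encodes tau, a protein of axonal microtubules, had a broad promoter region at chr11:104231001-104231580 and open sites spread along its introns. Its linked peaks numbered 11 in replicate 1 and 10 in replicate 2, where a linked peak lies in the gene body or 10 kb on either side and away from any annotated start site. Of these, 9 of replicate 1 and all 10 of replicate 2 were also found in the other library. The region with the highest sum of both libraries, at chr11:104232021-104232680 and 961 bp inside the gene, had 1.77 in replicate 1, where it was the strongest, and 0.986 in replicate 2, where 3 others were stronger. Sites far inside the gene included one 84511 bp from the 5′ end with 1.54 in replicate 1 and 1.08 in replicate 2. Another, 23446 bp inside at chr11:104254631-104255040, had 1.10 in replicate 1 and 1.24 in replicate 2, which made it the strongest in replicate 2. A neurogenic E-box, CAGATGG, the form bound by NeuroD and neurogenin proteins, lay in a footprint of this site in replicate 2 alone. A region over a coding exon, chr11:104289801-104290020, had 1.36 in replicate 1 and 1.06 in replicate 2. The Mapt promoter held the widest footprint of the 10 genes, 44 bp in replicate 1, which overlapped one of 23 bp in replicate 2. Its GC box, printed above, began 23 bases before the 5′ end.

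Map1b (chr13:99421446-99516540, minus strand), a microtubule-associated protein of growing axons, differed between the libraries. Its promoter peak had 2.04 in replicate 1 and 1.30 in replicate 2, and an internal start site 68952 bp downstream had 1.07 in replicate 1 and 0.823 in replicate 2. Linked peaks numbered 7 in replicate 1 and 0 in replicate 2. Of those 7, 5 lay between 633 and 3199 bp past the 5′ end, and the strongest of them had 1.26. Only 2 of the 7 regions held any base that replicate 2 listed at an FDR under 0.05. The 2 promoter footprints of Map1b that both libraries called lay at the 5′ end and about the GC box 53 bases upstream.

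Tubb3 (chr8:123411424-123422015, plus strand), the neuronal beta-tubulin, had a promoter peak of 2.97 in replicate 1 and 1.78 in replicate 2. A region in an intron, chr8:123412581-123412860, had 1.5 in replicate 1 and 1.08 in replicate 2. Its strongest linked region lay just past the 3′ end, at chr8:123422541-123422740, with 1.61 in replicate 1 and 1.55 in replicate 2, so the libraries differed by 1.04 times. The nearest annotated start site, 886 bp away, belongs to another gene, Def8. With a limit of 1000 bp the region would count as a promoter peak of Def8, so its link to Tubb3 is by position alone. That region, in an intron of the overlapping record Gm20388, held the CTCF match in a footprint of 43 bp in replicate 1 and 34 bp in replicate 2. A second shared footprint in it held a GC box. The window also took in the promoter of Mc1r, the melanocortin 1 receptor gene, with 1.58 in replicate 1 and 1.03 in replicate 2. Mc1r's peak is not counted for Tubb3.

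The neurofilament genes Nefl, Nefm and Nefh encode the light, medium and heavy subunits. Nefl (chr14:68083863-68089095, plus strand) and Nefm (chr14:68082590-68124846, minus strand) are neighbours, and Nefh (chr11:4938754-4948064, minus strand) lies apart. They shared a pattern: the open chromatin ran from the 5′ end through the first exon, most of which is coding. In Nefh the strongest region lay at chr11:4947001-4947500, 813 bp into the gene in exon 1, with 2.31 in replicate 1 and 1.30 in replicate 2. The Nefh promoter peak had 0.623 in replicate 1 and 0.609 in replicate 2. In Nefm the strongest region, chr14:68123501-68123980, lay 1105 bp into the gene across the end of exon 1, with 1.86 in replicate 1 and 1.30 in replicate 2. The Nefm promoter peak had 1.27 in replicate 1 and 0.789 in replicate 2. Both libraries thus put the strongest site of Nefm and Nefh inside the gene and not at its start. The Nefh peaks there lay 833 bp from the start site in replicate 1 and 733 bp in replicate 2. With a limit of 1000 bp they would count as promoter peaks of Nefh. In Nefl the peaks joined into 1 region from the promoter through exon 1, chr14:68083701-68085000, with 1.51 in replicate 1 and 1.18 in replicate 2. Its strongest linked region, chr14:68085059-68085280 in an intron, had 0.804 in replicate 1 and 0.523 in replicate 2.

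The deposited FDR gave the same picture base by base. Within 1500 bp of the 5′ end, the highest −log10 FDR of Nefh was 27.6 at 870 bp past the 5′ end in replicate 1 and 16.1 at 850 bp in replicate 2. Within 500 bp it was 6.96 in replicate 1 and 4.78 in replicate 2. For Nefm the highest value was 21.8 in replicate 1 and 8.11 in replicate 2, at 1170 bp in both libraries, while within 500 bp it was 13.0 in replicate 1 and 3.94 in replicate 2. For Nefl it lay at the start site, 30 bp before the 5′ end in both libraries, with 14.3 in replicate 1 and 8.42 in replicate 2. The strongest Nefh region, merged over both libraries and 500 bp wide, held 12 footprints in replicate 1 and 9 in replicate 2. The strongest Nefh promoter peak, 120 bp wide in replicate 1 and 352 bp in replicate 2, held 0 in both libraries. Merged over both libraries, that promoter region held a single footprint of 8 bp in replicate 1 and 0 in replicate 2. The Nefl and Nefm TATA boxes began 32 and 31 bases before the 5′ end and touched a footprint of 8 bp in Nefl and 9 bp in Nefm, in replicate 1 alone. They are shown here for that position, a choice made after their values were seen.
Nefl TATA box, chr14:68083819-68083848, plus strand: agagtcccggcgTATAAAtagaggtggcag
Nefm TATA box, chr14:68124847-68124897, minus strand: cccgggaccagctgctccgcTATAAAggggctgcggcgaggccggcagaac
The record of Nefm spans Nefl, which is transcribed the other way, so the window of Nefm holds all peaks of Nefl, and the peaks there that lie away from start sites count as linked for both genes.

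**Figure D2:**
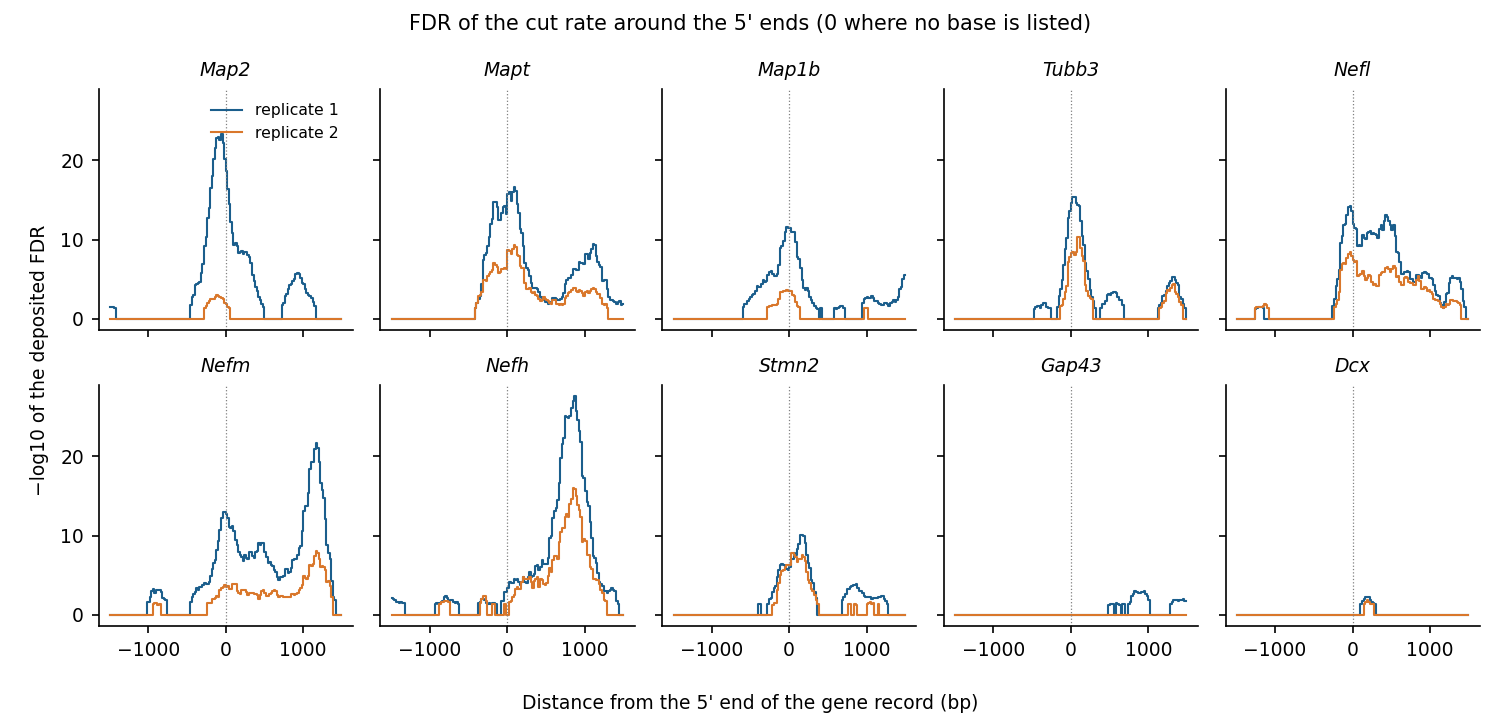
Highest −log10 of the deposited FDR of the cut rate in 20 bp bins within 1500 bp of the 5′ end of each gene record, with 0 where no base is listed under 0.05. Nefm and Nefh peak at about 1170 bp and 870 bp past the 5′ end in replicate 1, Map2 and Mapt at the 5′ end, and Gap43 lists no base in replicate 2.

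Stmn2 (chr3:8509360-8561606, plus strand), which encodes a stathmin that binds tubulin and acts in axon growth, had all of its open sites in the first 5 kb. Its promoter peak had 1.53 in replicate 1 and 1.39 in replicate 2, so the libraries differed by 1.10 times. Its strongest linked region, chr3:8513617-8513920 in an intron, had 1.11 in replicate 1 and 0.935 in replicate 2 and held the CTCF match 4514 bp from the 5′ end. The match lay in a footprint of 25 bp in replicate 1, which overlapped one of 11 bp in replicate 2. All 4 regions of Stmn2 were called in both libraries.

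Gap43 (chr16:42248442-42340651, minus strand), a membrane protein of growth cones, had no promoter peak at the 5′ end of its record. Within 500 bp of that end, replicate 1 listed 1 base at an FDR under 0.05 and replicate 2 listed 0, of 1001 bases. The other 9 genes listed bases there in both libraries, as did 54.6% of protein-coding genes. The median over protein-coding genes was 406 bases in replicate 1 and 205 in replicate 2. The peak nearest the 5′ end lay 523 bp inside in replicate 1, with a strength of 0.409, and 36770 bp inside in replicate 2. The promoter peak counted for Gap43 lay at the start of a noncoding transcript inside the gene, with 0.609 in replicate 1 and 0.497 in replicate 2. The strongest region of Gap43, chr16:42276521-42276740, lay 64020 bp inside the gene in an intron and had 2.62 in replicate 1 and 1.97 in replicate 2. It holds the CTCF match, in a footprint of 37 bp in replicate 1 and 43 bp in replicate 2. That site lies just beyond 500 bp from the noncoding start, so with a limit of 1000 bp it would count as a promoter peak. Further inside, a region at chr16:42269361-42269560 had 1.48 in replicate 1 and 1.00 in replicate 2 and held the RFX footprint, and one at chr16:42255747-42256080 had 1.16 in replicate 1 and 0.858 in replicate 2. So the open chromatin of Gap43 that both libraries called lay in the interior of the gene, 37031 bp or more from its 5′ end. The region at 37031 bp lay at the start site of another gene, Mir6540, and is not counted as a linked region of Gap43. Nearer the 5′ end, replicate 1 alone called 4 regions, 523 to 2127 bp inside the gene, with strengths of 0.409 to 0.623.

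Dcx (chrX:143855842-143933311, minus strand), which binds microtubules in migrating young neurons, had 2 peaks in each library, the fewest in replicate 1 and as many as Map1b in replicate 2. Its promoter peak lay 198 bp inside the gene, and 1 intronic region at chrX:143902466-143902644 had 0.395 in replicate 1 and 0.437 in replicate 2. Replicate 1 had 3 footprints in the window of Dcx and replicate 2 had 2, and none overlapped. The shorter, stricter peak list of each library held no promoter peak of Dcx or Gap43.

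**Figure D3:**
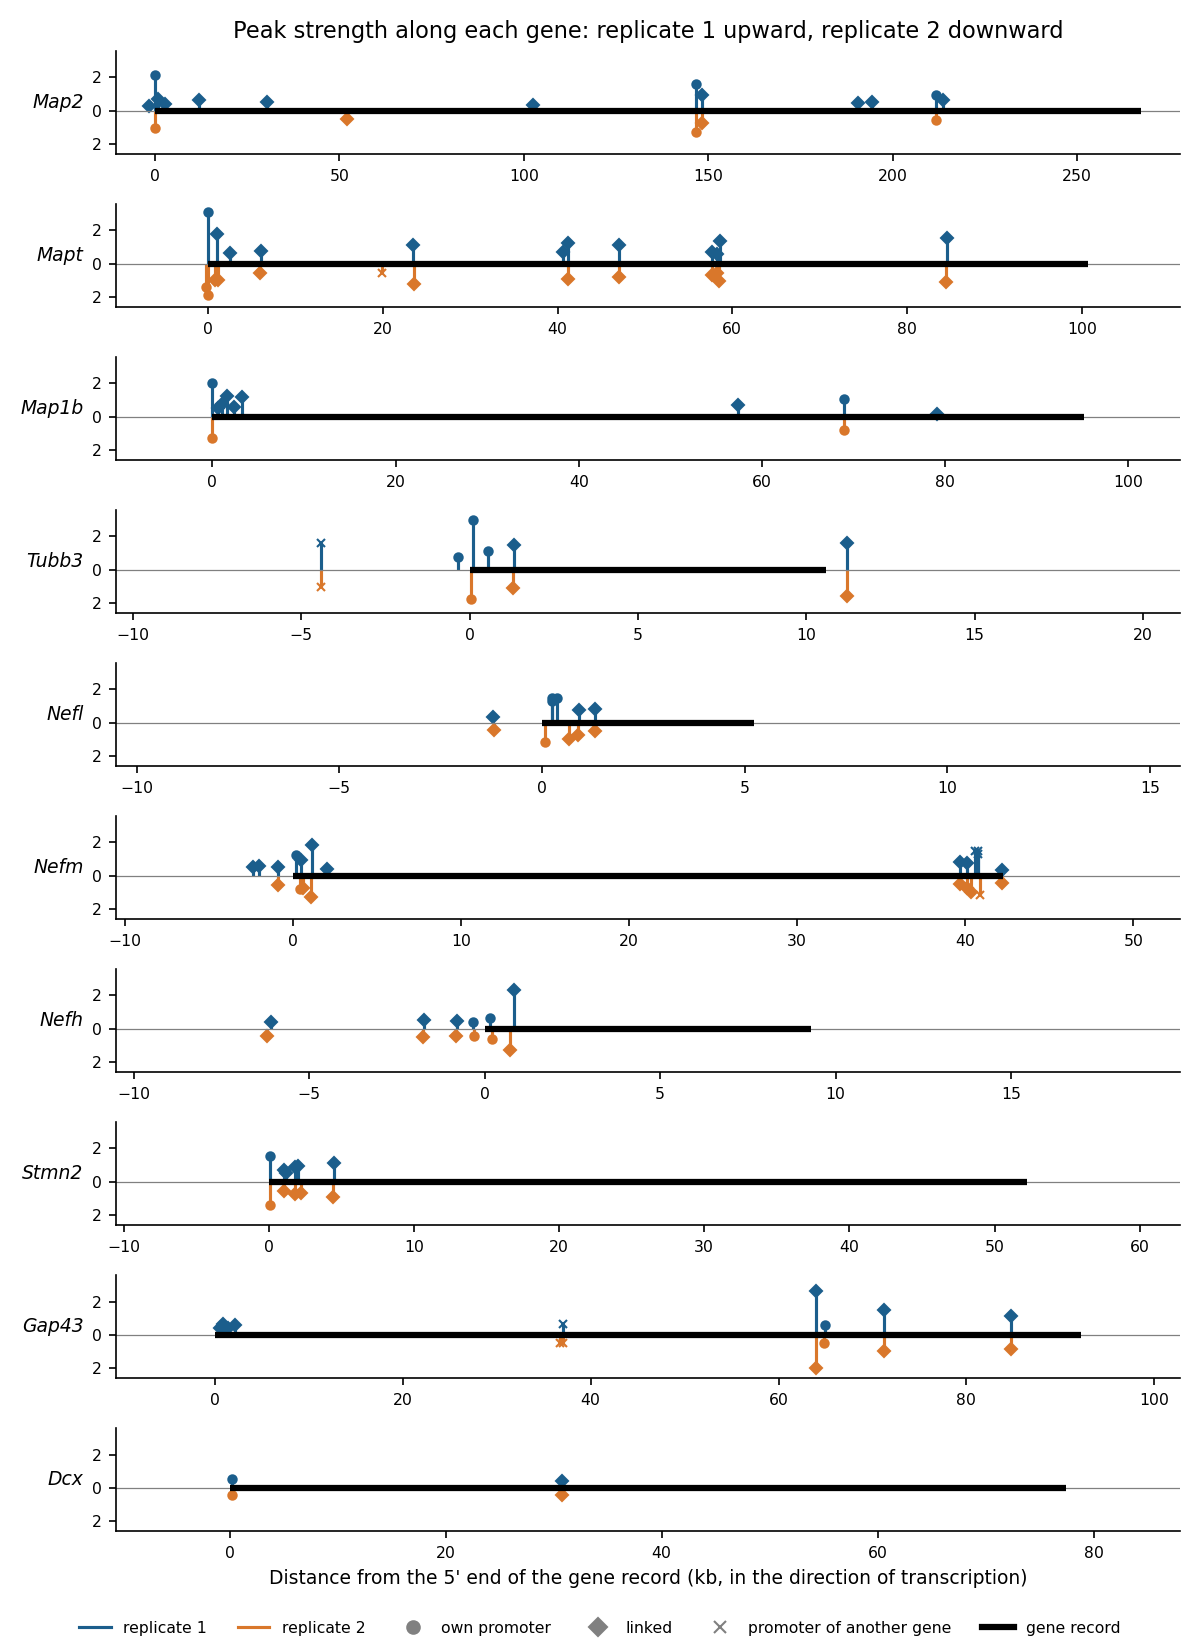
Peak strength along each gene against the distance from the 5′ end of its record in kb, with replicate 1 drawn upward and replicate 2 downward (deposited signal, each row with its own distance scale). Mapt has peaks of both libraries along its length, Map1b has linked peaks upward alone, and the tallest peaks of Gap43 stand about 64020 bp inside the gene.

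The 10 genes held more linked peaks than protein-coding genes in general. The median per gene was 6 in replicate 1 and 3.5 in replicate 2 for the 10 genes, and 1 in each library over protein-coding genes. In the gene lists described below, 6 neuron markers had medians of 7.5 in replicate 1 and 4.5 in replicate 2, and 4 astrocyte markers 7.5 and 5. For 29 other neuronal cytoskeleton and growth genes they were 4 and 2. The remaining lists had 1 to 2.5 in replicate 1 and 1 to 2 in replicate 2. So such counts were not particular to the 10 genes. The 10 genes are also longer than protein-coding genes in general, with a median of 64.9 kb against 17.4 kb. Per 100 kb of window the median was 6.73 in replicate 1 and 6.04 in replicate 2 for the 10 genes, against 2.82 in replicate 1 and 1.67 in replicate 2. Mapt had the most in both libraries, with 11 in replicate 1 and 10 in replicate 2. Nefm had 9 in replicate 1 and 7 in replicate 2, and Map2 had 10 in replicate 1 and 2 in replicate 2. Of the 56 linked peaks in replicate 1 and 33 in replicate 2, 32 and 17 lay within 5 kb of the 5′ end, and 44 and 22 lay in introns. These positions were not counted over all protein-coding genes, so they describe the 10 genes alone. The strongest linked peak exceeded the strongest promoter peak in 3 genes in replicate 1 and in 4 in replicate 2, the fourth being Dcx. Among protein-coding genes with a promoter peak this held for 22.3% in replicate 1 and 22.9% in replicate 2. For Dcx the values in replicate 2 were 0.437 and 0.429, a gap smaller than the counting error of 14.1% given above. With a limit of 1000 bp the leading linked sites of Nefh and Gap43 would count as promoter peaks.

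Agreement between the libraries differed by gene. In replicate 1, 48 of 76 peaks (63.2%) overlapped one of replicate 2 by at least 1 bp, and in replicate 2, 48 of 52 (92.3%) overlapped one of replicate 1. Over all peaks these shares were 59.1% of 93641 peaks in replicate 1 and 84.4% of 66196 in replicate 2, so the longer list has the lower share in both sets. Merged over both libraries, the windows held 74 regions, of which 42 were called in both, 28 in replicate 1 alone and 4 in replicate 2 alone. Map2 (9) and Map1b (7) held 16 of the 28 regions of replicate 1 alone, and Nefl, Stmn2 and Dcx held 0. Of those 28 regions, 3 held a base that replicate 2 listed at an FDR under 0.05. Their median strength in replicate 1 was 0.563, against 1.11 for the regions called in both. In the 42 regions called in both, replicate 1 was stronger in 36 and the median ratio was 1.30, with a range of 0.842 to 2.07. Over all 52787 regions called in both the median ratio was 1.25, and replicate 1 was stronger in 79.3%.

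**Figure D4:**
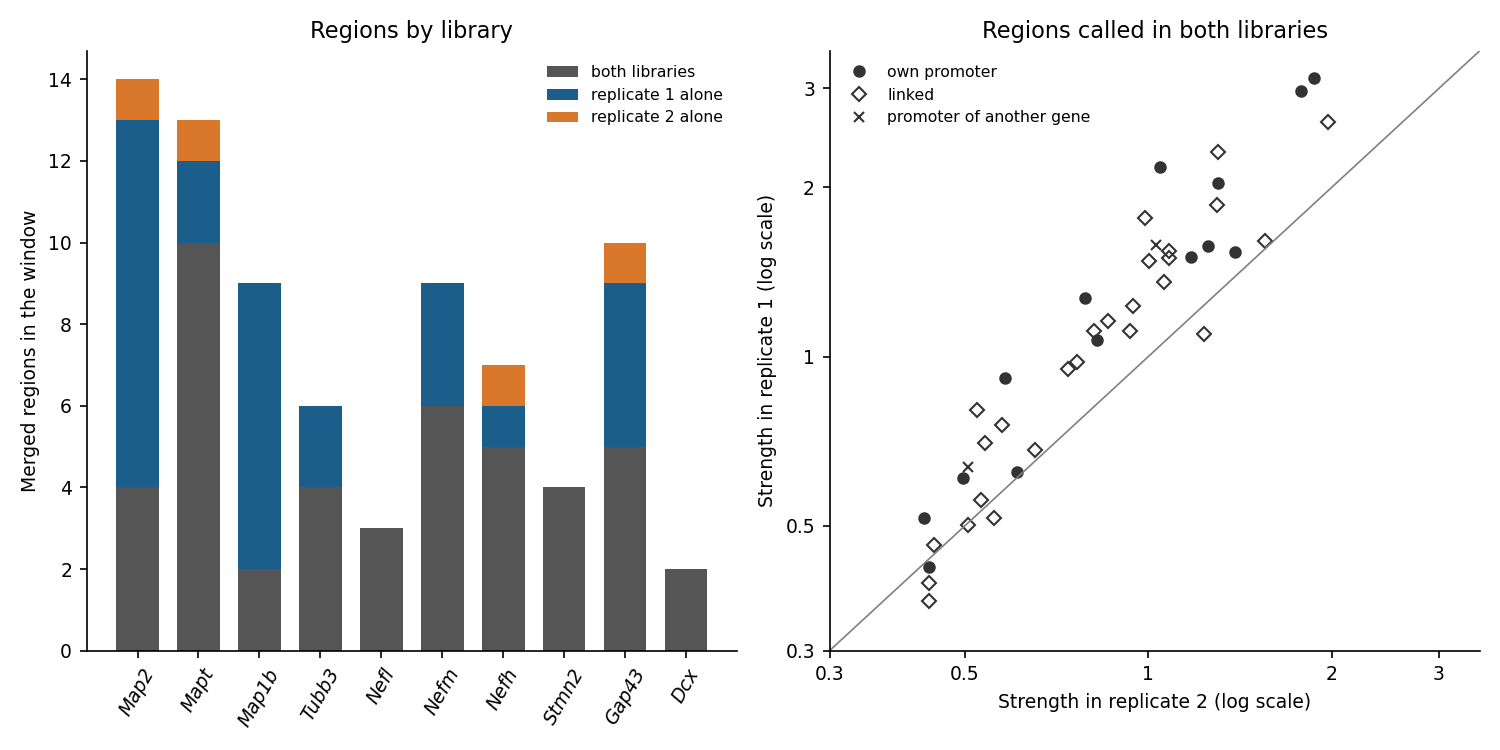
Left, merged regions in the window of each gene by the library that called them, where Nefl regions also count for Nefm. Right, strength in replicate 1 against strength in replicate 2 on log scales for the 42 regions called in both, where points above the line are stronger in replicate 1, as 36 of 42 are.

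The windows held 206 footprints in replicate 1 and 116 in replicate 2. Of these, 69 (33.5%) and 52 (44.8%) lay within 500 bp of a start site, against 42.7% and 48.4% of all footprints in replicate 1 and replicate 2. Those that overlapped a footprint of the other library were 27.2% in replicate 1 and 50.9% in replicate 2, and over all footprints 37.4% and 58.2%. The median width was 9 bp in both libraries, against 10 bp over all footprints. Mapt carried most under its strongest promoter peak that overlapped between libraries, 5 of 9 in replicate 1 and 6 of 8 in replicate 2. Nefl had 12 footprints under that peak in replicate 1 and 3 in replicate 2, and Stmn2 had 7 and 1. Map1b had 4 in each library, Tubb3 had 2 in replicate 1 and 4 in replicate 2, and Nefm had 6 and 3. Gap43 had 1 in each, Dcx had 2 in replicate 1 and 0 in replicate 2. For Map2 the strongest promoter peak was not the same site in both libraries: that of replicate 1, at the 5′ end, held 2, and that of replicate 2, at the second start site, held 6.

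Of 19 consensus sequences searched on both strands, 5 had a match in a footprint of at least 1 library that overlapped a footprint of the other. This gave 15 pairs of a footprint and a motif at 7 of the 10 genes. The pairs held the GC box (6), the E-box CAGCTG (4), CTCF (3), AP-1 TGANTCA (1) and RFX GTTNCCATG (1). The match itself lay in extended footprints of both libraries at 11 sites: GC box 5, E-box 2, CTCF 2, RFX 2 and AP-1 0. As shares of footprints these matches are near the whole data set or few in number. CTCF matches stood in 3 footprints in replicate 1 (1.46%) and 2 in replicate 2 (1.72%), against 1.89% and 2.49% of all footprints. The E-box stood in 9 in replicate 1 (4.37%) and 3 in replicate 2 (2.59%), against 1.89% and 1.62%, and the GC box in 11 (5.34%) and 8 (6.90%), against 8.05% and 8.35%. RE1 matches numbered 6 in the windows of Tubb3, Nefl and Nefm (the same match), Nefh, Stmn2 and Dcx. The one closest to the 5′ end of its gene lay at -1121 bp, before Stmn2. None of the 6 lay in a peak or a footprint of either library. Over all footprints, RE1 matches stood in 0.0064% in replicate 1 and 0.0104% in replicate 2, so their absence here was near the whole data set. A whole-genome share of RE1 matches in peaks is not given. A match describes letters in the reference and does not show that a protein was bound.

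Other genes of the same kind had promoter peaks throughout. All 29 of a second list of neuronal cytoskeleton and growth genes had one in both libraries, with a median strength of 2.80 in replicate 1 and 1.74 in replicate 2. Dpysl2, a collapsin response mediator (7.96 in replicate 1, 3.80 in replicate 2), and Camsap1, which binds microtubule minus ends (7.33 and 4.40), had the strongest. Dclk1, a doublecortin-like kinase, reached 41 linked peaks in replicate 1 and 43 in replicate 2, where Dcx had 1 in each. In a list of 18 genes, mostly intermediate filament and tubulin genes of other tissues, 5 had a promoter peak in both libraries and 12 in neither. The list is not free of genes of this tissue, since it holds Gfap, which is counted again among the astrocyte markers. Gfap, the filament of astrocytes, had 2.31 in replicate 1 and 1.84 in replicate 2, and Krt10, a keratin, had 1.88 and 1.38. Desmin (Des), peripherin (Prph), Krt5 and Krt8 were among the 12 with none. Of markers of cell types, 4 of 6 for neurons and 2 of 4 for astrocytes had a promoter peak in both libraries. It was 0 of 4 each for oligodendrocytes, microglia and endothelium. The neuron markers Slc17a7 and Gad1 and the oligodendrocyte marker Mbp (1.21) had one in replicate 1 alone, and Pecam1 of endothelium (0.377) in replicate 2 alone. Such small groups, beside 58.2% of protein-coding genes, do not tell cell types apart. Rbfox3, which marks most neurons, had 1.27 in replicate 1 and 0.558 in replicate 2. The share of each cell type in the tissue and its part in these values were not tested.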

How the data were processed

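DNase-seq of 2 libraries of 1 group was analysed from the deposited files, which the authors called per library, per the deposited notes, without pooling. The peak strength is a deposited signal that the authors normalized for read depth, per those notes. Each library has 2 peak lists, and the longer was used (93641 peaks in replicate 1, 66196 in replicate 2), with the shorter (53068 and 36975) as an alternative. The authors also deposited an FDR of the cut rate (a p-value adjusted by them) for each stretch of bases where it is under 0.05. Footprint files give positions, 234094 and 154015. The sources used here name no aligner, peak caller, version or threshold, and total reads are unknown.

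Windows were the GENCODE M21 gene record plus 10 kb on each side, and a peak or footprint belonged by its midpoint. Shared means an overlap of at least 1 bp. Overlapping peaks of both libraries were merged into regions, each taking its highest strength in a library. No peak reached past a GRCm38 chromosome end. Tools were python 3.11.15, numpy 2.4.6, pandas 2.3.3, pysam 0.24.0 and bedtools 2.31.1. The overlap, distance, merging and motif functions were tested on simulated data. The members, lists, motifs and rules were chosen with earlier results of these data known. All 10 genes are named. From each other list the 2 strongest promoters, the 2 with the most linked peaks and up to 4 without a promoter peak could be named. Rbfox3 and the sites described one by one in Mapt, Map2 and Gap43 were chosen after their values were seen. Some other genes of the lists are named to explain a count. Replicate numbers do not pair samples of different groups.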

Additional observations from a re-analysis of the deposited data

How the results depend on the processing

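The count of genes with a promoter peak in both libraries was 10, and 8 with the stricter peak lists (without Gap43 and Dcx) or a limit of 250 bp (without Nefm and Gap43). It was 9 with protein-coding start sites, without Gap43. The median of linked peaks per gene, 4.75 as the mean of both libraries, moved to 2 with the stricter lists, to 7.25 with 50 kb on each side and to 2.75 with a promoter limit of 1000 bp, and 1 library alone gave 3.5 to 6. The shared share of peaks, a mean of 77.7%, was 52.5% with 50% reciprocal overlap, and 63.2% to 92.3% in single libraries. The median log2 ratio of replicate 1 to replicate 2 was 0.37, with 0.45 for the stricter lists, 0.37 for promoters and 0.37 elsewhere. Footprints averaged 161 per library, 116 to 206 in single libraries, and 57.5 where only those overlapping the other library counted, an alternative chosen after seeing the data. Their promoter share averaged 39.2%, 33.5% to 44.8% in single libraries, and was 58.2% with a limit of 1000 bp. The causes were not tested beyond what each setting adds or removes. No paired analysis was possible because there is 1 group. Total reads are unknown, so how far depth limits the weakest peaks was not tested.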
